A study of Mus musculus with 18 samples.

Results

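The accessible chromatin around 9 prostaglandin and leukotriene genes was described in mouse bone marrow-derived macrophages (BMDMs): Pla2g4a, Ptgs1, Ptgs2, Ptges, Ptgir, Ptger2, Ptger4, Alox5 and Alox5ap. The genes were picked by name for their roles in eicosanoid synthesis and sensing, with earlier results of these data known, and are 9 of 21938 protein-coding genes in GENCODE release M21. Every accessible region overlapping a gene body, or the 50 kb to each side of the most upstream start site, was taken. This gave 77 of 59617 extended regions, 117 of 82391 reference peaks and 121 of 84660 summits, and 0 regions were shared between members.

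The lists come from ATAC-seq, in which the Tn5 transposase cuts and tags open chromatin, on 18 libraries in 9 groups of 2. Wild-type BMDMs, grown from the marrow of male C57/BL6 mice, had all received the solvent DMSO for 1 h. They were then left without stimulus or given 10 ng/mL of LPS or of IL-4 for 30 min, 1 h, 2 h or 4 h. LPS is a bacterial cell wall lipid sensed by TLR4, and IL-4 is a cytokine of type 2 immunity. The deposited lists merge all libraries, so no level per library, stimulus or time, and no replicate spread, could be given, and no test over samples was made. Per the study's methods, a peak entered the reference set when it passed a strict q-value cutoff in single libraries and overlapped between the replicates of a group, so a region open in some groups alone can be listed, and one below the cutoff is missing. As a check on the cell type, a reference peak lay within 1000 bp of a start site in 6 of 6 macrophage marker genes, with best summit scores of 1176 to 2021, and in 0 of 4 T cell, 1 of 3 B cell (Ms4a1, 1013), 1 of 3 neutrophil (Ltf, 505), 0 of 3 mast cell and 2 of 3 fibroblast markers (Col1a1, 613, and Pdgfra, 402).

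Eicosanoids are short-lived lipid signals made from arachidonic acid. Cytosolic phospholipase A2 frees arachidonic acid from membranes, the cyclooxygenases turn it into prostaglandin H2, and terminal synthases turn that into the prostaglandins, prostacyclin and thromboxane. In a parallel branch, 5-lipoxygenase and its activating protein start the synthesis of leukotrienes. Macrophages make both kinds of lipid and carry receptors for several of them, and induction of Ptgs2 and Ptges by LPS is a textbook response of these cells.

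Each summit, the highest point of a peak, carries a score in the deposited list that runs from 102 to 2781 with a median of 737. Its scale is not given in the sources used here, so scores were only ranked and compared within the list. A reference peak lay within 1000 bp of an annotated start site in 9 of 9 members, beside 56.5% of protein-coding genes. That count depends on Ptges, whose most upstream start site belongs to a noncoding transcript. When start sites of protein-coding transcripts alone were counted, 8 of 9 members had a peak, beside 55.2% of protein-coding genes, and Ptges did not. RefSeq's promoter table listed 8 of the 9 members, and 7 of these had a peak within 1000 bp of its start site, again without Ptges. The best start site score over the members had a median of 1176 and ran from 476 at Alox5 to 1877 at Ptges. Over the 12321 protein-coding genes with a start site summit, the median was 1456 and the middle 50% ran from 1071 to 1799, so that 3 of 9 members lay above the median.

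**Figure D1:**
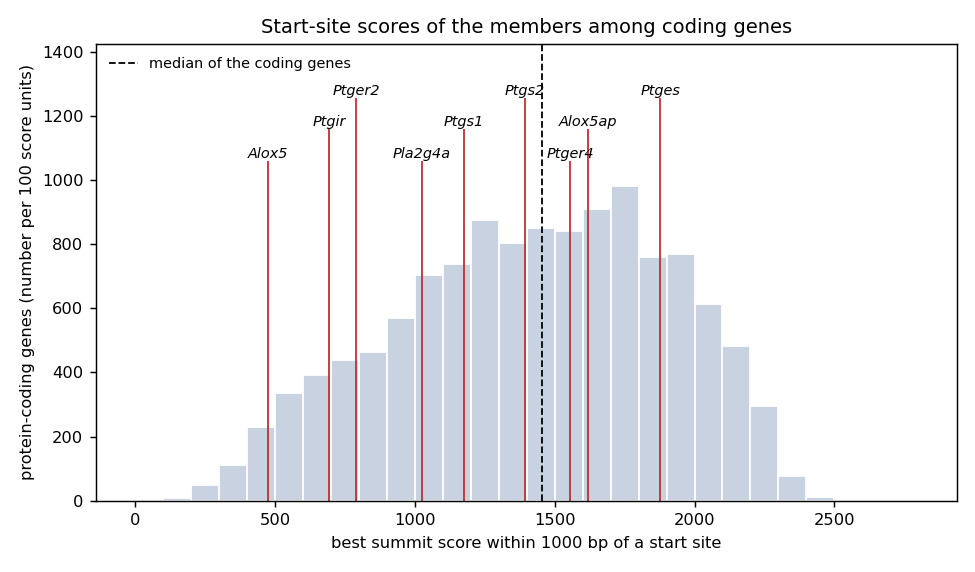
Best summit score within 1000 bp of any annotated start site (x axis, as deposited) against the number of protein-coding genes per bin of 100 (y axis, 12321 genes in all). Red lines mark the 9 members and the dashed line the median of 1456. Alox5 (476), Ptgir (695) and Ptger2 (791) sit in the low tail, and Ptges (1877) is the highest member, at a start site of a noncoding transcript.

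Most members had several accessible regions nearby. The median number of extended regions within 50 kb of the most upstream start site was 8, from 3 at Ptgs2 to 12 at Ptges, beside a median of 4 over all protein-coding genes and of 7 over those with a start site peak. The number was above 4 in 8 of 9 members, and from 58.3% to 92.1% of coding genes had fewer regions than these. Ptgs2 (3), Ptger2 and Ptger4 (6 each) and Alox5 (7) were not above the median of 7. Of the 77 regions, 10 had their best summit at an own start site, 31 lay elsewhere in a gene body (28 of them in an intron), 25 lay upstream and 11 downstream. A total of 9 regions lay at the start site of another coding gene. In 6 of 9 members, the best summit away from all coding start sites outscored the gene's own start site, beside 38.3% of the 12321 coding genes with a start site summit. In 4 of 9 members it lay within the gene body, beside 27.7% of the same genes. A gene with more regions has more summits to exceed its start site, and the number of regions was not matched.

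**Figure D2:**
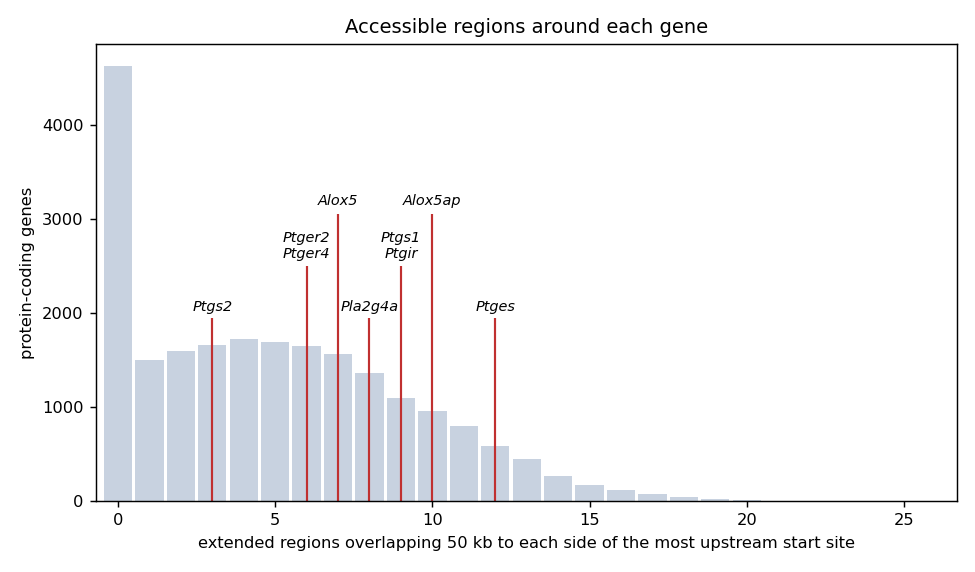
Number of extended regions overlapping the 50 kb to each side of the most upstream start site (x axis) against the number of protein-coding genes (y axis). Red lines mark the members. Ptgs2 has 3 regions, and the other 8 members have 6 to 12.

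**Figure D3:**
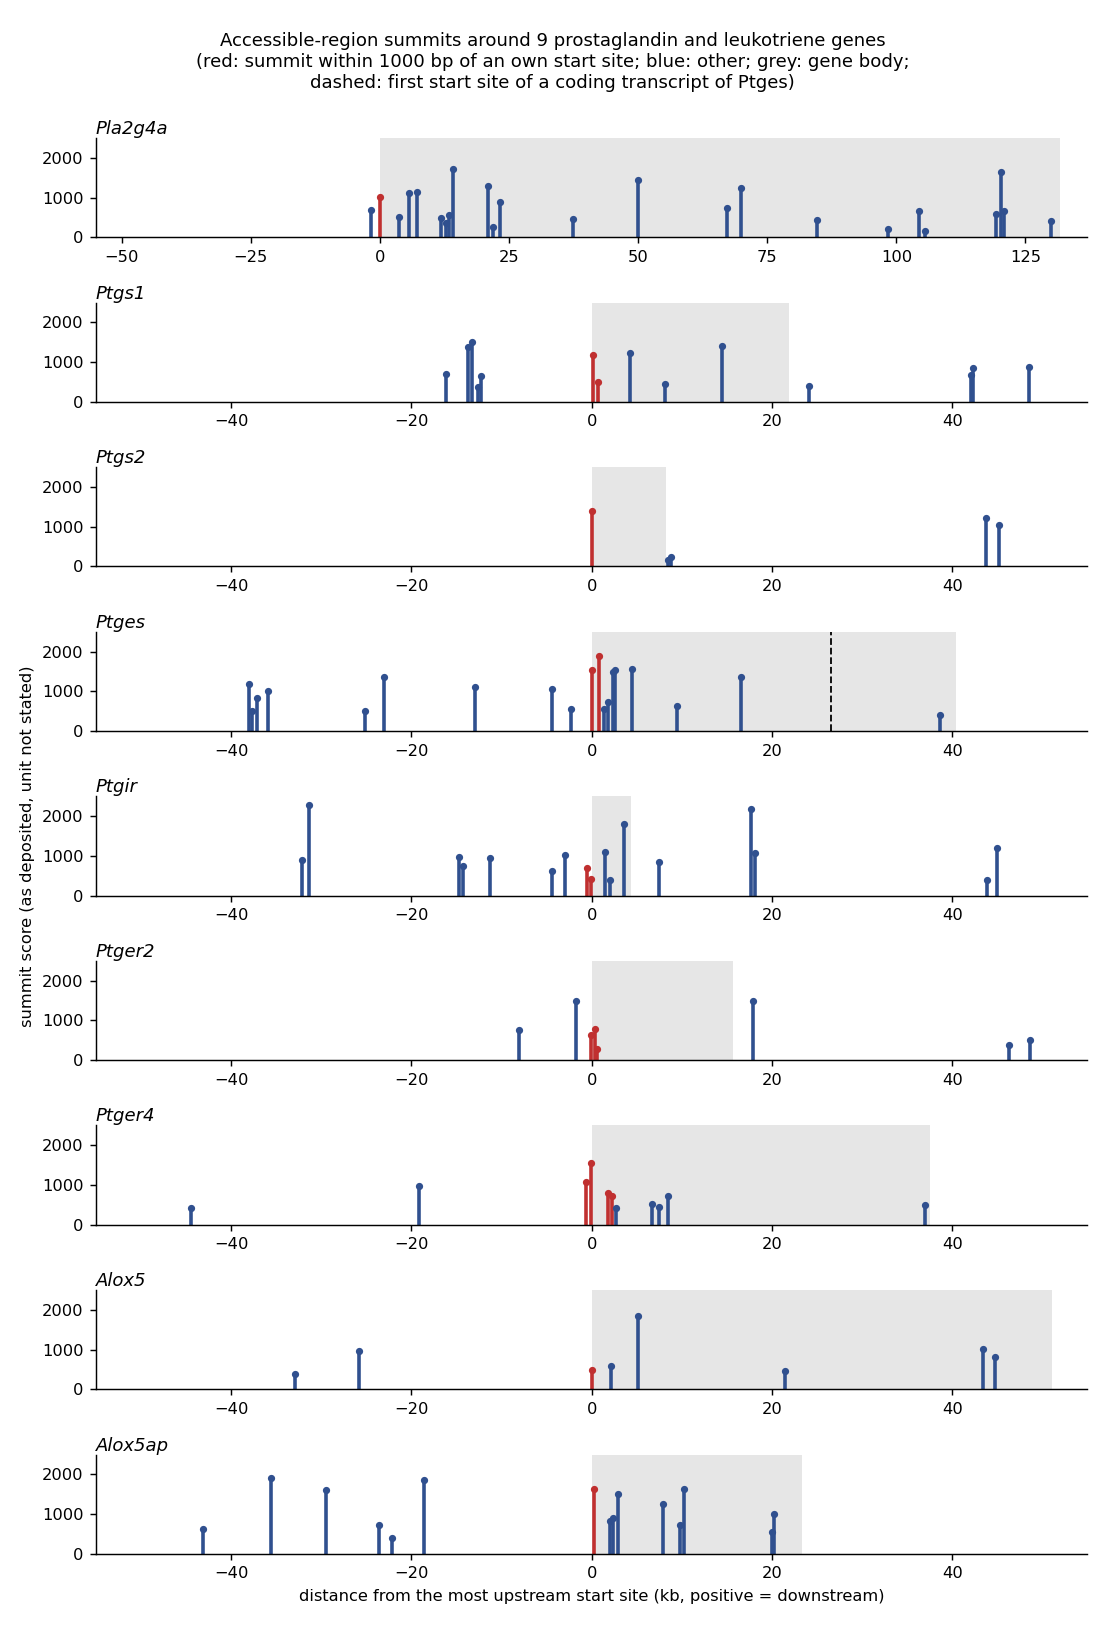
Summit scores (y axis, as deposited) against distance from the most upstream start site (x axis, kb, positive downstream in the direction of transcription) for the 9 members, with an x range for Pla2g4a that reaches over its longer gene body. Red marks summits within 1000 bp of an own start site, blue all others, and grey the gene body. Summits are spread along the body of Pla2g4a with wide gaps, Ptgs2 has none between its start site summit and its end, and no summit stands at the dashed coding start site of Ptges.

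The sequences below are shown because they carry the features described for each gene. They were read from assembly GRCm38.p6, which has the coordinates of mm10, and are written 5′ to 3′ on the gene's strand. For each step of the pathway, the first set holds the 250 bases before the most upstream start site of the member with the highest start site score. Capitals mark matches to any of 11 motifs searched on both strands: PU.1/ETS (GAGGAAGT), AP-1 (TGACTCA or TGAGTCA), C/EBP (TTGCNNAA), CRE (TGACGTCA), RUNX (TGTGGTT), SP/KLF (GGGGCGGG), the E-box (CACGTG), STAT6 (TTC and GAA spaced by 4 bases), IRF (GAAA repeated after 2 bases), NF-kB and CTCF. N stands for any base. A match states that these letters are present and not that a factor binds.

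Pla2g4a, chr1:149961291-149961540, minus strand: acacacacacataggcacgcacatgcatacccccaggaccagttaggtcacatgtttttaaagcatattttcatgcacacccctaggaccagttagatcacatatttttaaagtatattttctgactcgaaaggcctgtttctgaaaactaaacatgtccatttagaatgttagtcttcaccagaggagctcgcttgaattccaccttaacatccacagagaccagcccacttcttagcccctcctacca
Ptgs2, chr1:150099781-150100030, plus strand: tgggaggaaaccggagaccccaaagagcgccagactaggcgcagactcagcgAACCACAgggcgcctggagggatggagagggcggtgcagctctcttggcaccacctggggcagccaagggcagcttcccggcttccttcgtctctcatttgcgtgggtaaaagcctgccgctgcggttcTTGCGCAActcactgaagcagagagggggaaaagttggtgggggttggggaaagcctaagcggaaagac
Ptges, chr2:30929864-30930113, minus strand, before the noncoding transcript: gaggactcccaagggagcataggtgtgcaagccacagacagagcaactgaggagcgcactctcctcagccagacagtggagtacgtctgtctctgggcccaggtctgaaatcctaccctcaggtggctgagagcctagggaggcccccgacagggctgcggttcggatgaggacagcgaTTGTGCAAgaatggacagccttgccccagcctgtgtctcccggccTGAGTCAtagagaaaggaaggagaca
Ptges, chr2:30903298-30903547, minus strand, before the coding transcript: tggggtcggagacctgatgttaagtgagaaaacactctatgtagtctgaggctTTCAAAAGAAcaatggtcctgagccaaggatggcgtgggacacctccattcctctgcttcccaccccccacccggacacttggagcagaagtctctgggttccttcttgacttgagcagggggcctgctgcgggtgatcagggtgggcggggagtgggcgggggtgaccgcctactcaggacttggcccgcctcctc
Ptger4, chr15:5244188-5244437, minus strand: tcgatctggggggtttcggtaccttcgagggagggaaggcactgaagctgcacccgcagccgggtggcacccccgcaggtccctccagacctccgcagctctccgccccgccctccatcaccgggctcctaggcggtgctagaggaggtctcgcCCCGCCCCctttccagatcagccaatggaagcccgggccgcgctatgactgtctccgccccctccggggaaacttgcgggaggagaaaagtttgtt
Alox5ap, chr5:149264517-149264766, plus strand: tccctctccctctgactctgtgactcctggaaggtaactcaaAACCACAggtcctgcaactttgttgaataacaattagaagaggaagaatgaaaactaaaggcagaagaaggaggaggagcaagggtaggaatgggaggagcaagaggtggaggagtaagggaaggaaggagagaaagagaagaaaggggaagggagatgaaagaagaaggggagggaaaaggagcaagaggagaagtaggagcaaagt

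The second set holds the 100 bases to each side of the best summit of 3 regions away from start sites. The intronic Alox5 and the upstream Alox5ap region share the highest score, 1851, among such regions with a PU.1/ETS, AP-1 or NF-kB match. The Ptgs1 region was chosen after its values were seen, for holding most motifs.

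Alox5 intron, chr6:116455912-116456112, minus strand: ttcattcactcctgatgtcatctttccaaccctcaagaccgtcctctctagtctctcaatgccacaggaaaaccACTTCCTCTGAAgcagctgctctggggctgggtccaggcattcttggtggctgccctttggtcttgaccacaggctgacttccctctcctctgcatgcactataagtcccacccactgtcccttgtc
Alox5ap upstream, chr5:149246100-149246300, plus strand: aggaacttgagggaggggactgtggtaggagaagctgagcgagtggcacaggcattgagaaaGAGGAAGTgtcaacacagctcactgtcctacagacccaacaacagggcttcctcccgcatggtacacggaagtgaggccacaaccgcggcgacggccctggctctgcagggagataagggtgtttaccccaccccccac
Ptgs1 intron, chr2:36234562-36234762, plus strand: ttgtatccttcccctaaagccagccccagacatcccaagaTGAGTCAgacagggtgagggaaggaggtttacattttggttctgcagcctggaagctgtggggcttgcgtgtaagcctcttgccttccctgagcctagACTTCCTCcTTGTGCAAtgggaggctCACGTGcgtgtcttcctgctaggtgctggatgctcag

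Pla2g4a (ENSMUSG00000056220.14, chr1:149829618-149961290, minus strand) encodes cytosolic phospholipase A2, which releases arachidonic acid. Its start site peak, chr1:149961129-149961336, had a score of 1025 with the summit 52 bp past the start, in the first exon, and 22.3% of coding genes with a start site summit scored lower. Within the 131673 bp of its body lay 23 reference peaks, more than in 98.9% of coding genes. Per length, its body was among the sparsest of the 9 genes, with 1.75 peaks per 10 kb, where Alox5 had 1.17 and the other 7 had 1.92 to 9.06. The 13 body regions away from the start were all intronic. The best scored of them had a summit of 1708 at 14099 bp past the start. Another, 120241 bp past the start near the gene's far end, had a summit of 1644 with a PU.1/ETS match 42.5 bp away. A start site of the noncoding gene n-R5s219 lies within 1000 bp of that summit. The 250 bases before the start held 0 of the 11 motifs and 3 CpG dinucleotides, where the median coding gene had 8.

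Ptgs1 (ENSMUSG00000047250.13, chr2:36230426-36252272, plus strand) encodes cyclooxygenase-1, the form expressed in most tissues without stimulation. Its start site peak, chr2:36230366-36230655, scored 1176 at 95 bp past the start, and 31.3% of coding genes scored lower. A PU.1/ETS match, held by 2.37% of coding genes in the same stretch, began 24 bases before the start. Around the gene, 3 regions scored higher: 1518 at 13238 bp upstream, where the noncoding gene Gm13431 starts, 1406 at 14496 bp and 1236 at 4236 bp past the start. The last of these held PU.1/ETS, AP-1, C/EBP and E-box matches, the most motifs (4) of any of the 77 regions, with the PU.1/ETS and C/EBP matches lying side by side in the sequence above. A region at 16190 bp upstream, with a score of 695, held NF-kB, CTCF and E-box matches, the CTCF match 6.5 bp from the summit.

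Ptgs2 (ENSMUSG00000032487.8, chr1:150100031-150108227, plus strand) encodes the inducible cyclooxygenase-2. Its start site peak, chr1:150099835-150100164, scored 1394, with the summit 30 bp past the start, and 45.6% of coding genes scored lower. An E-box, whose motif 4.81% of all extended regions held near their best summit, began 16 bp past the start and lay 11.5 bp from that summit. The C/EBP match TTGCGCAA began 69 bases before the start and a RUNX match 198 bases before it. The window held 13 CpG dinucleotides and had a GC content of 61.6%, both within the middle 50% of coding genes (3 to 17 and 46.4 to 62.4%). Ptgs2os, a noncoding gene on the opposite strand, starts 68 bp before Ptgs2 and shares the peak, so the opening cannot be assigned to either gene alone.

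The surroundings of Ptgs2 were the sparsest of the 9 genes. Only 3 extended regions lay within 50 kb of its start, and 35.2% of coding genes had fewer. No other peak lay in the 83975 bp before its start site peak, a gap longer than 95.4% of those between neighbouring reference peaks, whose median was 5102 bp. The region with the highest score away from the start had 1212 at 43713 bp past the start. Pla2g4a and Ptgs2 lie head to head, with start sites 138741 bp apart and 2 reference peaks between those at the starts.

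Ptges (ENSMUSG00000050737.13, chr2:30889471-30929863, minus strand) encodes the membrane-bound prostaglandin E synthase that works downstream of Ptgs2. In GENCODE the locus begins with a noncoding transcript, and the first start site of a protein-coding transcript lies 26566 bp further downstream, at position 30903297. RefSeq's promoter table (GRCm38.p6) places the start of Ptges at the same base. No reference peak was found within 1000 bp of that coding start site. The nearest one, chr2:30913054-30913560, lay 9757 bp away, with a score of 1369 and with AP-1 and C/EBP matches 18 and 16.5 bp from its summit. The 250 bases before the coding start held a STAT6 match, as did 5.4% of coding genes, and 8 CpG dinucleotides. Further peaks were spread over the introns between the noncoding and the coding start. The highest score of the locus lay near the noncoding start. There, 1 extended region, chr2:30926446-30930746, held 5 peaks and 6 summits, among them the score of 1877 in an intron 815 bp past the start and one of 1531 at 20 bp before it. The best start site score of 80.1% of coding genes was lower than the former.

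AP-1 matches were found in 4 of the 12 regions of Ptges, beside 17.3% of all extended regions. They lay in introns before the coding start, at scores of 1877, 1568, 1369 and 634. A start site of the noncoding gene Gm13400 lies within 1000 bp of the summit of 1568. A further AP-1 match, TGAGTCA, began 26 bases before the noncoding start, where 4% of coding genes had one, and a C/EBP match began 71 bases before it. In 4 of the 12 regions the best summit lay within 1000 bp of a start site of the coding genes Tor1b, Tor1a or BC005624. The highest of these scored 1357, at Tor1b. The region at BC005624 overlapped the upstream window by its edge alone, with its best summit 50124 bp upstream. When the window was centred on the coding start site, 9 regions lay within 50 kb.

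Ptgir (ENSMUSG00000043017.9, chr7:16906490-16910905, plus strand) encodes the prostacyclin receptor IP. It had a weak start site: scores were 695 at 541 bp before the start and 411 at 26 bp before it, and 8.85% of coding genes scored lower than the better of these. The better summit, in chr7:16905767-16906102, had an NF-kB match 28.5 bp away. The gene's best region lay inside it, at 3636 bp past the start in the untranslated part of an exon, with a score of 1812 and an AP-1 match. The highest scores in the window, 2284 and 2179, stood at the start sites of the neighbours Dact3 and Calm3. Of the 9 regions within 50 kb, 4 were at start sites of Dact3, Gng8 or Calm3, so that 5 were not.

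Ptger2 (ENSMUSG00000037759.6, chr14:44988195-45003820, plus strand) encodes the prostaglandin E2 receptor EP2. Around its start, 3 summits scored 644 at 56 bp before it, 791 at 342 bp and 282 at 645 bp past it, and 12.3% of coding genes had a lower best score. Regions outside the gene scored higher, with 1480 at 1758 bp upstream, beside a STAT6 match, and 1493 at 17852 bp past the start, where the noncoding gene Gm17173 begins and an AP-1 match lay 14 bp from the summit. The stretch before the start held a palindromic C/EBP match, TTGCTTAAGCAA, in which 2 overlapping copies of the motif begin 45 and 41 bases before the start. RefSeq places the start of Ptger2 84 bp further upstream, so that this match lies past the RefSeq start. A weak region, with a score of 376 at 46282 bp past the start, held 3 NF-kB matches and 64.7% of the 201 bases around its summit were repeat.

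Ptger4 (ENSMUSG00000039942.15, chr15:5206661-5244187, minus strand) encodes the other G protein-coupled PGE2 receptor that raises cyclic AMP, EP4, and had the highest start site score of the 3 receptors. The summit scored 1556 at 57 bp before the start, in chr15:5244124-5244453, and 56.7% of coding genes scored lower. Its upstream window was the most CpG-rich shown above, with 19 CpG dinucleotides and a GC content of 66.8%, and held an SP/KLF match 96 bases before the start, as did 18.6% of coding genes. A C/EBP match lay near the best summit of 3 of its 6 regions, beside 11.7% of all extended regions, at 61.5 to 78.5 bp from the summit and thus in 0 regions within 50 bp. Away from the start sites, its best region scored 968 at 19111 bp upstream, lower than the start site itself.

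Alox5 (ENSMUSG00000025701.12, chr6:116410077-116461178, minus strand) encodes 5-lipoxygenase, the enzyme that commits arachidonic acid to leukotrienes. It had the weakest start site of the 9 genes, a single peak of 131 bp, chr6:116461075-116461205, with a score of 476 at 10 bp past the start, and 2.58% of coding genes scored lower. In contrast, a summit 5166 bp past the start, in an intron, scored 1851, which 96.0% of all summits did not reach. There the PU.1/ETS match ACTTCCTC overlapped the STAT6 match TTCCTCTGAA, 22.5 and 19.5 bp from the summit. A smaller intronic region 2189 bp past the start, with a score of 573, held another PU.1/ETS match and an IRF match. Further into the gene, 43451 bp past the start, a summit of 1013 had AP-1 and C/EBP matches within 22.5 bp.

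Alox5ap (ENSMUSG00000060063.9, chr5:149264767-149288153, plus strand) encodes FLAP, the membrane protein that presents arachidonic acid to 5-lipoxygenase. Unlike Alox5, it scored high at the start, with 1619 at 220 bp past it, in chr5:149264919-149265138, and 61.1% of coding genes scored lower. The window before the start held 0 CpG dinucleotides and a RUNX match 208 bases before the start, a motif found there in 4.28% of coding genes. Upstream, a series of summits scored 1851 at 18567 bp, 1594 at 29511 bp and 1916 at 35604 bp. The first and 2 weaker upstream regions, with scores of 727 and 623, held PU.1/ETS matches, and the 201 bases around the summit of 1916 had a GC content of 74.1% and held none of the motifs. Within the gene, the best regions scored 1619 at 10229 bp and 1518 at 2941 bp past the start.

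Across the 9 genes, the low start site and high intronic summit of Alox5 formed the widest contrast, and Ptgs2, Ptges and Ptger4 were the members whose start site outscored every summit away from coding start sites. For Ptges this holds at the noncoding start alone, since its coding start site had no peak and thus no score. The other 6 members' best such summit exceeded the start site, a count given above beside 38.3% of coding genes. Reference peaks with 2 summits included chr2:30927146-30927622 in Ptges with scores of 1531 and 1480, chr7:16923900-16924755 at Calm3 with 2179 and 1082, and chr5:149266725-149267161 in Alox5ap with 889 and 834.

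Taken over all 77 regions, AP-1 was the most frequent motif near the best summit. It was found in 16 regions (20.8%, 95% Wilson interval 13.2 to 31.1), beside 17.3% of all extended regions. At 50 bp from the summit the shares were 13.0% and 12.7%. Each of the 9 genes had at least 1 region with AP-1, but the share of all coding genes with such a region was not counted. C/EBP was found in 13 regions (16.9%, 10.1 to 26.8) of 8 genes, beside 11.7%, and before the most upstream start of 3 members, beside 9.23% of coding genes, where the Ptges match precedes the noncoding transcript. Within 50 bp of the summit the direction turned, with C/EBP in 5.19% of the 77 regions and 6.68% of all extended regions. PU.1/ETS was found in 10 regions (13.0%, 7.21 to 22.3), beside 10.1%, which lay at 5 genes: 3 at Alox5ap and 2 each at Alox5, Pla2g4a and Ptges, with 1 at Ptgs1. The 3 prostanoid receptors, with 9, 6 and 6 regions, had 0, too few regions to read an absence from. The E-box was found in 8 regions (10.4%, 5.36 to 19.2) of 6 genes, beside 4.81%. This was the single motif of the 11 whose interval did not reach the catalog's share, and no test was made. The difference was not seen within 50 bp of the summit, where 2.60% of the 77 regions and 2.62% of all extended regions held an E-box.

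The remaining motifs were near or below the share in the catalog. RUNX was found in 6 regions, beside 8.3% of all extended regions, and STAT6 in 5, beside 6.91%. NF-kB was found in 4 regions, beside 5.34%, at 4 genes. SP/KLF was found in 3 regions, beside 6.75%, CTCF in 3, beside 3.63%, IRF in 2, beside 3.73%, and CRE in 0, beside 1.06%. None of the 11 motifs was found in 26 regions (33.8%), beside 39.9% of all extended regions. The intervals cover counting error alone, and neighbouring regions of 1 gene are not independent.

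**Figure D4:**
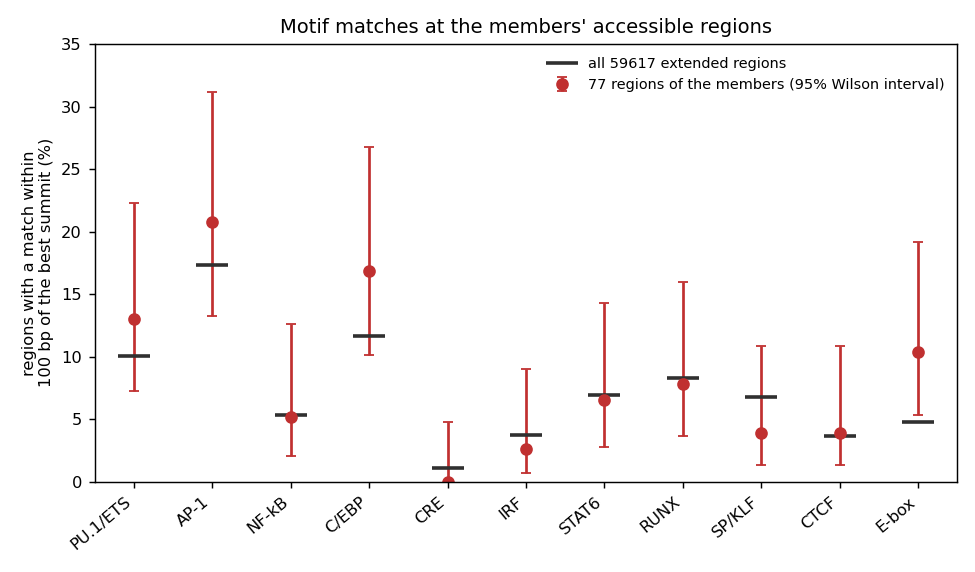
Share of extended regions with a motif match within 100 bp of their best summit (y axis, %) for 11 motifs (x axis). Red points are the 77 regions of the members with 95% Wilson intervals and black bars are all 59617 extended regions. The black bar lies inside the interval for 10 motifs and below it for the E-box (10.4% against 4.81%).

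Further properties of the 77 regions are given beside those of the whole catalog. The median best score per region was 1013, beside 823, and 29.9% (20.8 to 40.8) of the regions had their best summit at a start site of any gene, beside 25.0%. They had a mean of 1.60 summits, beside 1.42, a median peak width of 228 bp, beside 227 bp, and, over the 201 bases around the best summit, a GC content of 51.7% ± 7.97 (SD over regions, n = 77), beside 51.4% ± 9.16.

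To place the members in the pathway, 53 further genes of eicosanoid metabolism and sensing were examined. A start site peak was found in 25 of 53 (47.2%, 34.4 to 60.3), beside 56.5% of coding genes, and the median best score of these was 1224. Within 2500 bp, the count was 32 of 53, beside 59.9% of coding genes. Terminal prostanoid synthases had one in 7 of 9 genes, among them Tbxas1, which makes thromboxane A2 (score 1916), Akr1b3, an aldose reductase with prostaglandin F synthase activity (1812), and Fam213b, a prostamide and prostaglandin F synthase (1760). Ptgds and Ptgis, the lipocalin-type prostaglandin D synthase and the prostacyclin synthase, had none, with the nearest peaks 7817 and 11034 bp from a start site. Leukotriene synthesis genes had one in 6 of 8, led by Ltc4s, the leukotriene C4 synthase (1929), while Mgst2, a microsomal glutathione transferase, and Dpep1, a dipeptidase that cleaves leukotriene D4, had none, with the nearest peaks 1145 and 2443 bp away.

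Receptors were divided. All 3 prostanoid receptors among the members, IP, EP2 and EP4, had a start site peak, whereas 0 of the 6 others did: the nearest peak to a start site lay 1874 bp away for Ptger1, 9181 bp for Ptger3, 23913 bp for Ptgdr, 3324 bp for Ptgdr2, 91587 bp for Ptgfr and 7437 bp for Tbxa2r. Over all coding genes the share with a start site peak was 56.5%. The contrast depends on the limit of 1000 bp, since the nearest peak of Ptger1 lies within 2500 bp. The members were named with earlier results of these data known, so this contrast is a description. The cysteinyl leukotriene receptor genes Cysltr1 (1224) and Cysltr2 (706) had a peak, and Ltb4r1 and Ltb4r2, the leukotriene B4 receptor genes, had their nearest peak just past the limit, at 1208 and 1035 bp. Of the phospholipases, 4 of 15 had a start site peak, led by Pla2g6, a calcium-independent phospholipase A2 (1969), and of the other lipoxygenases 2 of 5. Genes of prostanoid transport and breakdown had one in 3 of 5.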

How the data were processed

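ATAC-seq reads of 76 bases (single-end) were processed by the authors: adapters were removed with BBDuk, reads were trimmed with Trimmomatic 0.39 and mapped to mm10 with ShortStack, and SAMtools 1.9 served to drop poorly mapped and mitochondrial reads. MACS2 2.2.6 was run without a model or local background, with duplicates kept and summits called, so a height can include PCR copies. The authors kept peaks below a strict q-value in single libraries that overlapped by at least 50% between replicates. No Tn5 shift is named. The 3 deposited BED lists hold reference peaks, extended regions and summits, and the summit list's score was used as deposited, on a scale not given in the sources used here. They hold 0 columns per library, so depth and precision per library are unknown and stimuli and times were not compared here.

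Genes and start sites came from GENCODE M21 and sequence from GRCm38.p6. Overlap was at least 1 bp. Motifs were searched within 100 bp of a region's best summit and in the 250 bp before the most upstream start site. The members and lists were chosen with earlier results of these data known. The genes described are the 9 members and, of the pathway list, the 5 best scored start sites and the synthases and receptors without a start site peak, while Cysltr1 and Cysltr2 were added after their values were seen. Python 3.11.15, numpy 2.4.6, pandas 2.3.3 and scipy 1.17.1 were used, and the code was tested on simulated data. Alternatives changed the windows, the start sites used, the score filter and the summits searched. Some sequence is not reported here.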

Additional observations from a re-analysis of the deposited data

How the results depend on the processing

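The count of members with a start site peak was 9 within 500 bp, within 2500 bp and at the most upstream start site alone, beside 54.9%, 59.9% and 52.1% of coding genes. It was 7 when a score of at least 737 was required (without Ptgir and Alox5), beside 50.7%, and 8 with start sites of protein-coding transcripts alone, beside 55.2%, an alternative chosen after seeing the data. The median number of extended regions per member moved from 8 to 13 within 100 kb, to 14 when reference peaks were counted and to 5 when a score of at least 737 was required. The medians over all coding genes moved to 9, 6 and 2. For the motifs, within 50 bp of the summit AP-1 fell to 13.0% of regions (12.7% of all extended regions at that setting), C/EBP to 5.19% (6.68%), RUNX to 2.60% (5%) and the E-box to 2.60% (2.62%), so that the E-box share no longer stood above that of the catalog. With every summit searched C/EBP rose to 28.6% (15.3%), and with summits over 1000 bp from any start site alone SP/KLF fell to 0% (1.515%). A narrower window has fewer positions to match, and the cause of the other moves was not tested. The other 52 of 61 alternative values stayed within 1.5 times the count or median, or within the interval of the share. No paired analysis was possible because the lists carry no library columns, and leaving out replicates was not possible for the same reason.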
